A study of Homo sapiens with 4 samples.

Results

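Transcripts of the transforming growth factor beta (TGF-beta) pathway, 10 of the 23444 gene entries in the count table, were followed after depletion of MAGED2 in the human glioblastoma line U87-MG, a long-established culture model of that brain tumour. They were chosen by symbol: the ligands TGFB1, TGFB2 and TGFB3, the receptors TGFBR1 and TGFBR2, the signal transducers SMAD2 and SMAD3, the corepressors SKIL and TGIF1, and TGFBI, a secreted matrix protein named for its induction by the ligand. All 10 symbols matched 1 entry each, and all 10 passed the filter on low counts. The knockdown group held 2 libraries from cells with a short hairpin RNA against MAGED2 (shMAGED2), and the control group 2 from cells with a control hairpin (shCON), both in U87-MG and otherwise untreated as far as the labels say. The series design speaks of a stable knockdown, whereas the treatment protocol in the labels names hairpins against ZDHHC15, transient plasmid transfection and harvest at 36 h. Which description holds, how many hairpins were used and whether either line is a single clone could not be taken from the labels.

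In this pathway a ligand dimer brings the type II receptor TGFBR2 together with the type I receptor TGFBR1, which phosphorylates SMAD2 and SMAD3. These then join SMAD4 and act on genes in the nucleus, where SKIL (also called SnoN) and TGIF1 hold SMAD-bound genes back by recruiting repressor complexes. Ligands are secreted in a latent form bound to LTBP proteins and freed by, among others, integrins that contain the ITGAV chain. In glioblastoma the pathway is known for its part in invasion, mesenchymal gene expression and suppression of immune cells, and TGFB2 was first described as a factor secreted by such tumours.

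Promoter windows are shown for TGFB2 and TGFB3, the pair of ligands that changed in opposite directions, and for SKIL, the gene with the smallest p of the 10. Each runs 5′ to 3′ on the gene's strand from 250 bases before to 50 bases after a start site in RefSeq (GRCh38.p14): TGFB2 at chr1:218345086-218345385 (plus strand), the more upstream of the TGFB3 windows at chr14:75982962-75983261 (minus strand) and SKIL at chr3:170357465-170357764 (plus strand). Capitals mark matches, on either strand, to the core of the SMAD-bound CAGA box (CAGACA), the SMAD palindrome (GTCTAGAC), the AP-1 site (TGANTCA), the cyclic AMP response element (TGACGTCA) or the E-box (CACGTG).
TGFB2: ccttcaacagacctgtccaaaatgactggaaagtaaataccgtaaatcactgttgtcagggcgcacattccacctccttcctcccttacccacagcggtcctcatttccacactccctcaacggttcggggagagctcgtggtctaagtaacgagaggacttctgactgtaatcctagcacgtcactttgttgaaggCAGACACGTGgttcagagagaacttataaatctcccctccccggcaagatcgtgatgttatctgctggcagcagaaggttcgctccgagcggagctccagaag
TGFB3: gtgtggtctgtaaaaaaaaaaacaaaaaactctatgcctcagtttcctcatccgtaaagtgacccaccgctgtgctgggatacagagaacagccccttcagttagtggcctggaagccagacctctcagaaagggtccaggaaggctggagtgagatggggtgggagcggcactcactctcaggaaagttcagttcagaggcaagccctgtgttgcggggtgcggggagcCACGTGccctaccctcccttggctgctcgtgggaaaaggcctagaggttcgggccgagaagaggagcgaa
SKIL: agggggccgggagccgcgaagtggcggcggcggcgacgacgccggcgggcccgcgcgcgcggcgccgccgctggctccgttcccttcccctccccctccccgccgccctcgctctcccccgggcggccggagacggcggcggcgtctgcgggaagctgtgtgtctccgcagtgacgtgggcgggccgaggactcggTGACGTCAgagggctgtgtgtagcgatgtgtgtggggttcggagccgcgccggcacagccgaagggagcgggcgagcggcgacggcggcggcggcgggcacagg

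The TGFB2 window held an E-box, CACGTG, beginning at position -49 from the start site and overlapping a CAGACA that begins at -53. An E-box also stood in the TGFB3 window shown, at -20, while the other TGFB3 window held none of the marked motifs. The SKIL window held TGACGTCA at -54. RefSeq gave 30 windows for the 10 genes, with 8 of TGFBR1 and 7 of TGIF1. Some windows of a gene overlap, so counts of windows are not independent and no excess over all genes is read from them. A match to CAGACA was present in 7 of them (16.9% of 35116 windows of all genes), to the AP-1 site TGANTCA in 5 (7.71%), to CACGTG in 3 (7.26%), to TGACGTCA in 1 (1.85%), to the GC box GGGCGG in 17 (45.0%) and to the SMAD palindrome GTCTAGAC in 0 (0.202%). These are matches of letters, and binding at them was not measured. Those to CAGACA were in windows of TGFB2, TGFBR1, SMAD3 and TGIF1, and those to the AP-1 site in windows of TGFBR2, SMAD3 and TGIF1. The RefSeq start of TGFB2 lies upstream of the start of the GENCODE gene used below.

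Total counts were 31160205 and 36234336 in shMAGED2 replicates 1 and 2, and 34235565 and 28673774 in shCON replicates 1 and 2. The targeted gene MAGED2 had 526 and 795 counts in shMAGED2 and 6090 and 5225 in shCON, so 11.2% of the control level remained after scaling (log2 change -3.16, SE 0.13; edgeR, adjusted p = 0.000654), whereas ZDHHC15 had 0 counts in all 4 libraries. The shMAGED2 libraries differed from each other more than the shCON libraries did, with a chi-square per degree of freedom of 89.5 in the shMAGED2 pair and 7.42 in the shCON pair. Of 9 markers of the labelled glioblastoma line, VIM and CD44 were abundant in all 4 libraries and the neural stem cell factor SOX2 had 0 to 4 counts. Of the 9, 8 were tested, 1 rose and 2 fell: NES, an intermediate filament gene of neural progenitors, rose (1.88, SE 0.18; adjusted p = 0.0020), and OLIG2, a glial transcription factor with 52 and 81 counts in shMAGED2 and 180 and 169 in shCON, and CHI3L1, a secreted glycoprotein, fell (-1.45 and -0.45; adjusted p = 0.0158 and 0.0447). The astrocyte filament GFAP had 28 and 51 counts in shMAGED2 and 79 and 89 in shCON and did not pass. The part of these markers in the results for the 10 genes was not tested. Of other cells, the leukocyte marker PTPRC had 0 to 30 counts, and AIF1 of macrophages, CDH1 of epithelium and MOG of oligodendrocytes had 0 in all 4 libraries. Of 6 neuronal and oligodendrocyte markers, SYT1 had 629 and 638 counts in shMAGED2 and 885 and 804 in shCON, and SNAP25 had 513 and 558 in shMAGED2 and 491 and 292 in shCON; 3 were tested and 0 called, and their summed level was 34.1 to 40.1 CPM in shMAGED2 and 38.1 to 39.9 CPM in shCON. The 4 epithelial markers, with 3 tested and 0 called, summed to 2.69 to 3.97 CPM in shMAGED2 and 1.80 to 2.01 CPM in shCON. All marker genes were named with their values in view. Of 6 immune markers, with 3 tested and 0 called, CD68, a lysosomal protein also made by non-immune cells, made up most of their summed level of 380 to 603 CPM in shMAGED2 and 459 to 464 CPM in shCON. In bulk RNA, fewer cells of a kind and less RNA per cell cannot be told apart. Nothing in the labels says that replicates were separate cultures, so p-values measure the spread between these libraries, which may be technical.

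TGFB3 rose, and TGFB2, SKIL, TGIF1 and TGFBI fell, in shMAGED2 relative to shCON, while TGFB1, both receptors and both SMADs did not pass the threshold. Calls rest on edgeR's quasi-likelihood test at a Benjamini-Hochberg adjusted p under 0.05 over all 15293 genes tested, of which 23.9% were called (12.3% rose and 11.6% fell). The 1 rise and 4 falls are 5 of 10 genes. The groups did not overlap for 9 of the 10 genes, 3 higher and 6 lower in shMAGED2. Over all genes tested that share was 66.1%, with 33.1% higher and 33.0% lower. The median log2 change was -0.21 over the 10 genes and 0.00284 over all genes tested. Levels below are CPM, counts relative to a library total scaled by TMM, and changes are log2 differences, shMAGED2 minus shCON.

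**Figure D1:**
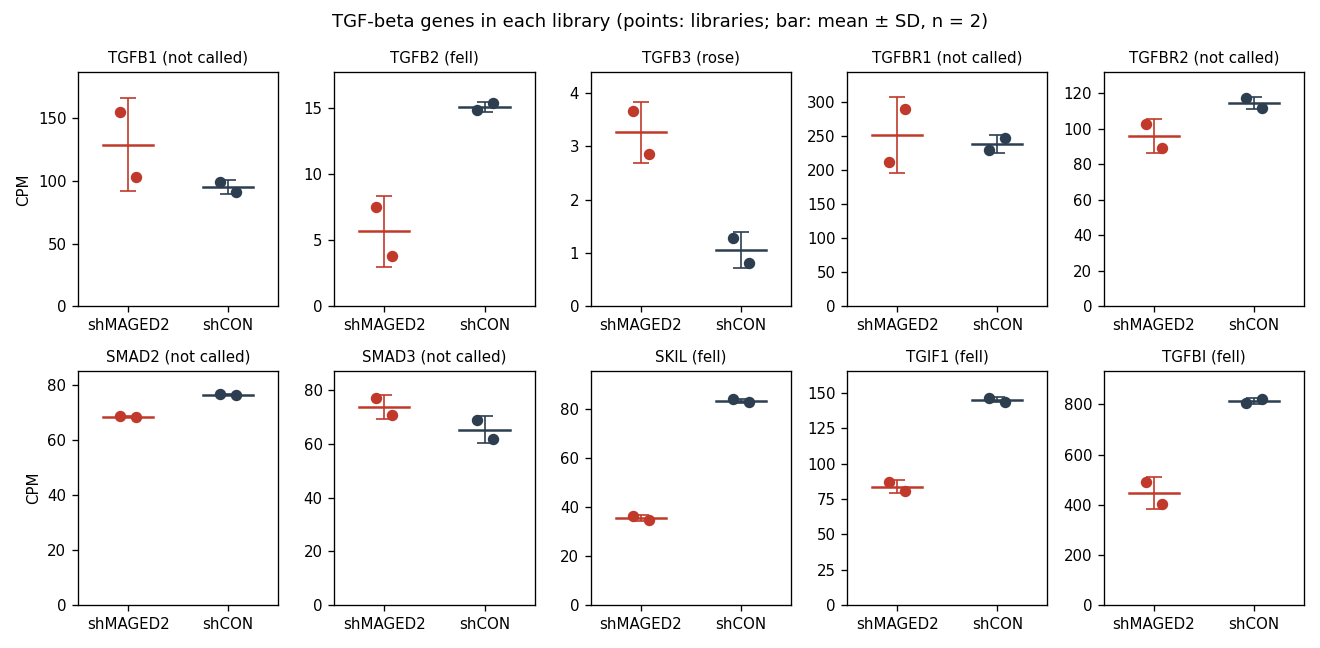
CPM of the 10 genes (vertical axes, each from 0) in 2 shMAGED2 and 2 shCON libraries; points are libraries, the horizontal line is the mean and the bar the SD (n = 2 per group). The groups overlap for TGFBR1 and are widely apart for SKIL, at 36.6 and 34.7 CPM in shMAGED2 against 84.2 and 83.0 CPM in shCON.

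Among the ligands, TGFB1 was by far the most abundant transcript. TGFB1 (ENSG00000105329, a protein-coding gene on chromosome 19, 41301587 to 41353911 on the minus strand of hg38 in GENCODE 29, as for all genes here) encodes the ligand best known from immune regulation and fibrosis. It had 155 and 103 CPM in shMAGED2 and 98.9 and 90.8 CPM in shCON. Both shMAGED2 libraries were above both shCON libraries, but the shMAGED2 libraries differed 1.51-fold from each other. The log2 change of 0.44 (SE 0.20) did not pass (adjusted p = 0.161). It depended on the library: it was 0.70 without shMAGED2 replicate 2 and 0.11 without shMAGED2 replicate 1. TGFB1 shares 215 bases of exon with HNRNPUL1 on the opposite strand, and whether reads were counted by strand is not stated in the labels. HNRNPUL1, an RNA-binding protein gene, had 14575 and 11812 counts in shMAGED2 and 8946 and 7490 in shCON, and its part in the TGFB1 values was not tested.

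TGFB2 fell, with both knockdown libraries well under both controls. TGFB2 (ENSG00000092969, chromosome 1, 218346235 to 218444619, plus strand) encodes the ligand that relies on the co-receptor TGFBR3 to bind TGFBR2. It had 222 and 139 counts in shMAGED2, or 7.54 and 3.78 CPM, and 517 and 450 counts in shCON, or 14.8 and 15.3 CPM. The shCON libraries lay close together, and the shMAGED2 libraries, both lower, differed 1.99-fold. Its mean was 5.66 ± 2.65 CPM in shMAGED2 and 15.1 ± 0.373 CPM in shCON (SD, n = 2 each), a remaining 37.6%. The log2 change was -1.42 (SE 0.33; edgeR, adjusted p = 0.0298). The call was lost without shCON replicate 1 (-1.45, adjusted p = 0.0682) and without shCON replicate 2 (-1.39, adjusted p = 0.0634), and the change was -1.99 without shMAGED2 replicate 1 and -1.002 without shMAGED2 replicate 2, both called. GENCODE 29 also places TGFB2-OT1, a transcript with 1371 bases of exon in common on the same strand, inside TGFB2. It has no entry of its own in the table used here, so its reads cannot be told apart from those of TGFB2.

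TGFB3, the scarcest of the 10 transcripts in shCON, rose. TGFB3 (ENSG00000119699, chromosome 14, 75958099 to 75982991, minus strand) encodes the ligand known for its role in palate fusion. It had 108 and 105 counts in shMAGED2 and 45 and 24 counts in shCON, which scaled to 3.67 and 2.86 CPM in shMAGED2 against 1.29 and 0.818 CPM in shCON. Every shMAGED2 value lay above every shCON value, and the counts are small enough for counting error to matter. The log2 change was 1.62 (SE 0.38; edgeR, adjusted p = 0.0313), a 3.07-fold rise. It missed the threshold without shCON replicate 1 (1.99, adjusted p = 0.0677) and without shCON replicate 2 (1.34, adjusted p = 0.168). The antisense gene TGFB3-AS1 shares 163 bases of exon with it and has no entry in the table used here.

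The make-up of the ligand transcripts was compared within each library with the authors' FPKM values, which are relative to length. For some genes the step from counts to FPKM differed between libraries. SMAD2 in shMAGED2 was at 78.5% of shCON by FPKM and 89.5% by CPM, and TGIF1 at 50.7% and 57.7%. FPKM ratios and orders of levels between genes, here and below, carry that difference. TGFB1 made up 94.96% and 95.2% of the summed FPKM of the 3 ligands in shMAGED2, and 91.2% and 90.7% in shCON. TGFB2 made up 2.54% and 1.92% in shMAGED2, against 7.54% and 8.47% in shCON. TGFB3 made up 2.49% and 2.88% in shMAGED2, against 1.28% and 0.866% in shCON. The ratio of TGFB3 to TGFB2 FPKM was therefore 0.980 and 1.50 in shMAGED2 and 0.170 and 0.102 in shCON: the 2 minor ligands were at similar levels in shMAGED2, while TGFB2 was the higher in both shCON libraries. For none of these shares did the groups overlap, and each gave p = 0.333 in a two-sided exact permutation test, the smallest p that 2 libraries against 2 allow (0.407 after Benjamini-Hochberg adjustment over 11 such measures). The shares restate the changes of the single ligands given above and are no separate support for them. The summed ligand FPKM was 53.8 and 38.5 in shMAGED2 and 38.6 and 35.7 in shCON, ranges that overlapped (exact permutation p = 0.667).

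**Figure D2:**
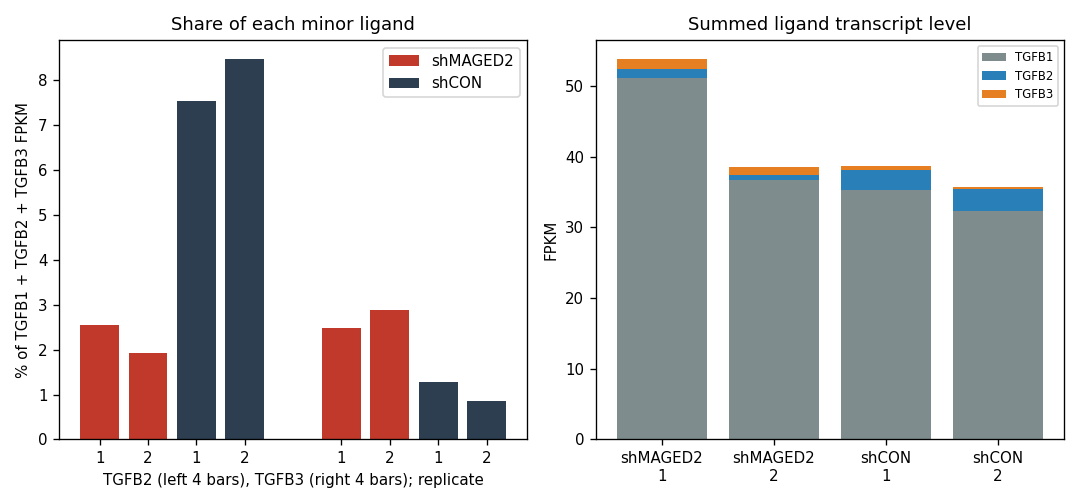
Left, TGFB2 and TGFB3 as a percentage of the summed FPKM of the 3 ligands in each library (red shMAGED2, dark shCON); right, the stacked FPKM of the ligands per library. TGFB2 is at 2.54% and 1.92% in shMAGED2 against 7.54% and 8.47% in shCON, and TGFB1 makes up most of each stacked bar.

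Neither receptor passed the threshold with all 4 libraries. TGFBR1 (ENSG00000106799, chromosome 9, 99104038 to 99154192, plus strand), the kinase that phosphorylates SMAD2 and SMAD3, had 212 and 290 CPM in shMAGED2 and 229 and 247 CPM in shCON. The shMAGED2 libraries lay on either side of both shCON libraries. Its log2 change was 0.08 (SE 0.16, edgeR adjusted p = 0.760). The sign turned on a single library: 0.29 without shMAGED2 replicate 1 and -0.17 without shMAGED2 replicate 2. TGFBR1 was called in both of these fits, in opposite directions. The spread in such fits comes from the shCON pair alone. TGFBR2 (ENSG00000163513, chromosome 3, 30606502 to 30694142, plus strand), the ligand-binding kinase, had 103 and 89.2 CPM in shMAGED2 and 117 and 112 CPM in shCON. Both shMAGED2 values were below both shCON values, with a log2 change of -0.25 (SE 0.11, edgeR adjusted p = 0.146). That change was -0.36 without shMAGED2 replicate 1 and -0.16 without shMAGED2 replicate 2. The FPKM ratio of TGFBR2 to TGFBR1 was 0.663 and 0.424 in shMAGED2 and 0.689 and 0.602 in shCON, and its log2 values gave an exact permutation p = 0.667.

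SMAD2 and SMAD3, the transducers, did not pass either. SMAD2 (ENSG00000175387, chromosome 18, 47808957 to 47931146, minus strand) had 68.5 and 68.4 CPM in shMAGED2 and 76.7 and 76.3 CPM in shCON. The replicates were nearly equal and the groups did not overlap, yet the log2 change of -0.16 (SE 0.09) had an adjusted p = 0.272. On the log2(FPKM + 0.1) scale it was -0.34 (limma, adjusted p = 0.153), as the deposited FPKM values of SMAD2 (3.98 in shMAGED2 and 5.07 in shCON on average) lay further apart than its CPM. SMAD3 (ENSG00000166949, chromosome 15, 67063763 to 67195195, plus strand) had 77.1 and 70.8 CPM in shMAGED2 and 68.9 and 62.0 CPM in shCON. Its log2 change was 0.18 (SE 0.11, edgeR adjusted p = 0.30). Without shMAGED2 replicate 2 it was 0.23, and without shMAGED2 replicate 1 it was 0.11. The FPKM ratio of SMAD3 to SMAD2 was 2.97 and 3.04 in shMAGED2 against 2.24 and 1.90 in shCON (exact permutation p = 0.333 on the log2 ratio).

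Both corepressors fell, and both calls held with any 1 library left out. SKIL (ENSG00000136603, chromosome 3, 170357678 to 170396835, plus strand) encodes SnoN, which binds SMAD complexes and is itself known as a gene that TGF-beta induces. It had 36.6 and 34.7 CPM in shMAGED2 and 84.2 and 83.0 CPM in shCON. Replicates lay within 1.05-fold of each other in shMAGED2 and 1.01-fold in shCON, and 42.7% of the control level was left. The log2 change was -1.23 (SE 0.10; edgeR, adjusted p = 0.0014), and -1.27 to -1.19 with any 1 library left out, called each time. TGIF1 (ENSG00000177426, chromosome 18, 3411608 to 3459978, plus strand) encodes a homeodomain protein that represses SMAD-bound and retinoid-responsive genes. It had 86.8 and 80.6 CPM in shMAGED2 and 146 and 144 CPM in shCON. Both shMAGED2 values were well below both shCON values. The log2 change was -0.79 (SE 0.09; edgeR, adjusted p = 0.0040), and -0.85 to -0.74 with any 1 library left out, called each time with adjusted p up to 0.0481.

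**Figure D3:**
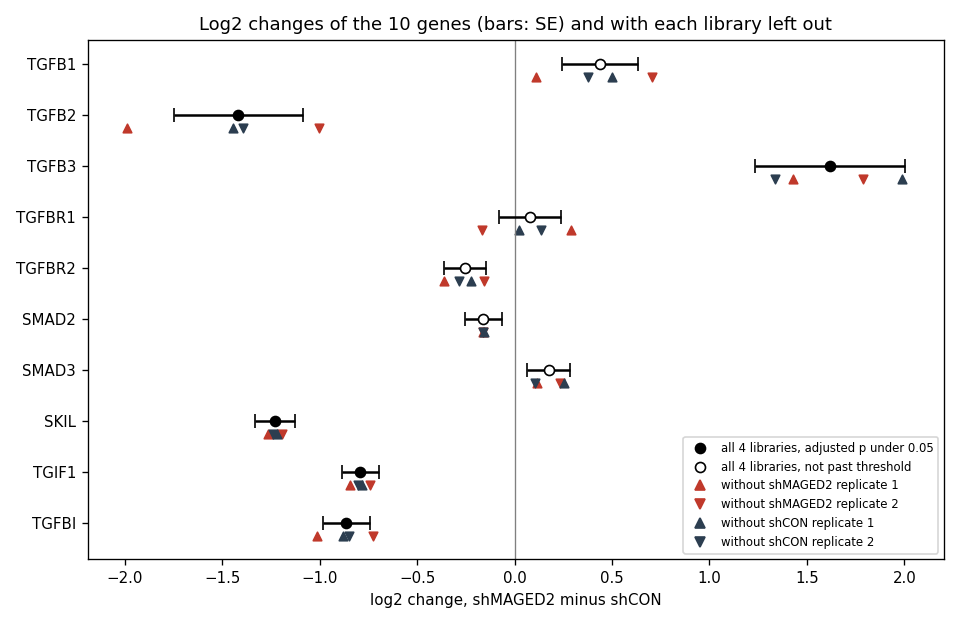
Log2 change, shMAGED2 minus shCON (horizontal axis), of the 10 genes with all 4 libraries (circles, bars are the SE; filled where the adjusted p was under 0.05) and with each library left out (triangles). SKIL stays between -1.27 and -1.19, whereas TGFBR1 lies on both sides of 0 and TGFB2 from -1.99 to -1.002.

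SKIL relative to SMAD3, and TGIF1 relative to SMAD2, were lower in both knockdown libraries. Ratios of other corepressors, such as SKI, to the SMADs were not taken. The FPKM ratio of SKIL to SMAD3 was 0.690 and 0.686 in shMAGED2 and 1.74 and 1.85 in shCON. SKIL was thus below SMAD3 in both shMAGED2 libraries and above it in both shCON libraries. The ratio of TGIF1 to SMAD2 was 10.8 and 12.0 in shMAGED2 and 18.2 and 17.1 in shCON, and the ratio of TGIF1 to SKIL was 5.25 and 5.77 in shMAGED2 and 4.67 and 4.86 in shCON. None of these 3 ratios overlapped between groups, and each log2 ratio gave an exact permutation p = 0.333, the smallest that 2 libraries against 2 allow. The ratios restate the changes of the single genes given above and are no separate support for them. Of all single genes tested, 66.1% did not overlap either, and that share was not taken for ratios.

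**Figure D4:**
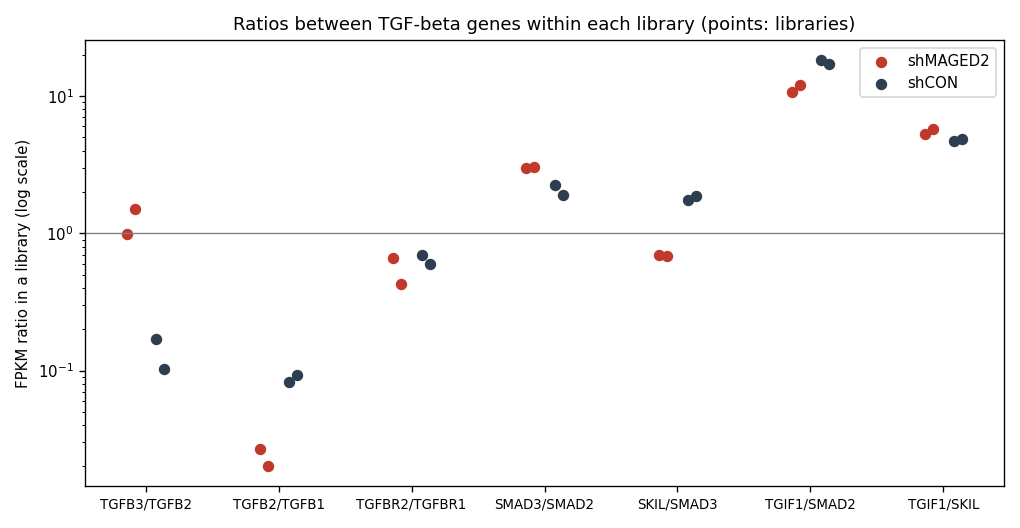
FPKM ratios between pairs of the 10 genes (vertical log axis) in the 2 shMAGED2 (red) and 2 shCON (dark) libraries; each point is a library and the grey line marks a ratio of 1. The ratio of SKIL to SMAD3 is below the line in shMAGED2 (0.690 and 0.686) and above it in shCON (1.74 and 1.85), and the groups overlap for TGFBR2/TGFBR1.

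TGFBI, the most abundant of the 10 transcripts per length, fell. TGFBI (ENSG00000120708, chromosome 5, 136028895 to 136063818, plus strand) encodes a secreted protein that binds collagens and integrins, first cloned from cells treated with TGF-beta. It had 14509 and 14768 counts in shMAGED2 and 28113 and 24111 in shCON, or 492 and 402 CPM in shMAGED2 against 805 and 822 CPM in shCON. The groups lay far apart relative to either pair's own spread, and 55.0% of the control level was left. The log2 change was -0.86 (SE 0.12; edgeR, adjusted p = 0.00619), and between -1.02 and -0.73 with any 1 library left out, called each time.

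By FPKM, the order of levels in shMAGED2 was TGFBI (151), TGIF1 (45.3), TGFB1 (43.8), TGFBR1 (37.6), TGFBR2 (19.6), SMAD3 (12.0), SKIL (8.23), SMAD2 (3.98), TGFB3 (1.22) and TGFB2 (1.05), as means of 2 libraries. In shCON it was TGFBI (287), TGIF1 (89.3), TGFBR1 (37.9), TGFB1 (33.8), TGFBR2 (24.4), SKIL (18.8), SMAD3 (10.5), SMAD2 (5.07), TGFB2 (2.97) and TGFB3 (0.402). Neighbours therefore stood in the other order in shMAGED2 in 3 cases: TGFB1 and TGFBR1, SMAD3 and SKIL, and TGFB3 and TGFB2. In shMAGED2 the ranges of TGIF1 and TGFB1, of TGFB1 and TGFBR1 and of TGFB3 and TGFB2 overlapped, while in shCON no neighbours overlapped.

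With each library left out, the number of the 10 genes called changed along with the calls over all genes. Without shMAGED2 replicate 1, 2 rose and 5 fell (41.1% of all genes tested were called in either direction), and without shMAGED2 replicate 2, 3 rose and 5 fell (47.0%). Without shCON replicate 1, 0 rose and 3 fell (6.96% of all genes), and without shCON replicate 2, likewise 0 rose and 3 fell (7.97%). SKIL, TGIF1 and TGFBI were the 3 that fell in all of these fits. TGFB1, TGFBR1, TGFBR2 and SMAD3 passed only in fits without a shMAGED2 library, and TGFBR1 did so in opposite directions.

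Other genes of the pathway moved in both directions. In 6 lists with 75 genes besides the 10, 65 were tested, of which 9 rose, 10 fell and 46 were not called, with a median log2 change of -0.0003. For all genes tested, 12.3% rose and 11.6% fell. Levels follow as means with SD over 2 libraries each.

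Of 12 genes of ligand latency and activation, 11 were tested, 3 fell and 0 rose, with a median of -0.17. LTBP3, a latent TGF-beta binding protein, fell to 131 ± 4.00 CPM in shMAGED2, against 211 ± 10.7 CPM in shCON (log2 change -0.68, SE 0.09; adjusted p = 0.00591). ITGAV, a chain of integrins that release active ligand, fell to 135 ± 9.96 CPM in shMAGED2, against 205 ± 16.8 CPM in shCON (adjusted p = 0.0133). LTBP1, which tethers latent ligand to the matrix, fell by 0.32 on the log2 scale (SE 0.09; adjusted p = 0.0465). Without shCON replicate 1 none of the 3 passed, and without shCON replicate 2 only LTBP3 did; LTBP1 passed in 6 of 10 alternatives of scaling, filter, tool and block. The macrophage and microglial latency protein NRROS, at 22.2 and 21.1 CPM in shMAGED2 and 12.8 and 17.8 CPM in shCON, did not pass (0.50, adjusted p = 0.112). The other integrin chains of the list, ITGB8 and ITGB6, were named with values in view. ITGB8 had 16.2 and 13.6 CPM in shMAGED2 and 10.5 and 15.0 CPM in shCON and did not pass (0.23, edgeR adjusted p = 0.503). ITGB6 had 0 counts in both shMAGED2 libraries and 0 and 10 in shCON and was not tested. Release of ligand was not measured.

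Among 8 co-receptors, related receptors and decoys, 7 were tested, 1 rose and 1 fell, with a median of 0.26. ENG, or endoglin, a co-receptor known mainly from endothelium, rose to 76.7 ± 19.8 CPM in shMAGED2, against 27.1 ± 1.27 CPM in shCON (1.50, SE 0.19; adjusted p = 0.00486). Among 5 markers of endothelium, PECAM1 had 64 and 32 counts in shMAGED2 and 20 and 0 in shCON, and CLDN5 had 2 and 0 in shMAGED2 and 0 in both shCON libraries. Of the 5, 3 were tested and 1, KDR, fell, and their summed level was 8.47 to 9.71 CPM in shMAGED2 and 12.2 to 14.04 CPM in shCON. Their part in the ENG result was not tested. ACVR1, a type I receptor for bone morphogenetic proteins (BMPs) and activin, fell to 60.0 ± 0.363 CPM in shMAGED2, against 108 ± 1.68 CPM in shCON (-0.85, SE 0.09; adjusted p = 0.0030). VASN, which binds and traps TGF-beta, had 24.9 and 18.9 CPM in shMAGED2 and 14.7 and 13.5 CPM in shCON, just over the threshold (0.64, adjusted p = 0.0528). ACVRL1, the type I receptor that pairs with endoglin, had 10 and 11 counts in shMAGED2 and 0 and 0 in shCON, too few to be tested, and was named with these counts in view.

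Of 11 SMADs and partners, 10 were tested, 2 rose and 0 fell, with a median of 0.05. SMAD6, an inhibitory SMAD of the BMP branch, rose to 6.56 ± 2.19 CPM in shMAGED2, against 1.50 ± 0.536 CPM in shCON (2.13, SE 0.39; adjusted p = 0.0149). SMAD9, a receptor SMAD of the BMP branch, rose to 8.37 ± 0.366 CPM in shMAGED2, against 2.46 ± 0.160 CPM in shCON (1.76, SE 0.23; adjusted p = 0.00492). Both passed with any 1 library left out. The other receptor SMADs of that branch did not pass, with log2 changes of -0.30 for SMAD1 (adjusted p = 0.294) and -0.0003 for SMAD5 (adjusted p = 0.999); both were named after their values were seen. SMAD4, the partner of all receptor SMADs, had 51.9 and 54.6 CPM in shMAGED2 and 59.2 and 62.1 CPM in shCON and did not pass (-0.19, adjusted p = 0.241).

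Of 12 further corepressors and turnover factors, 11 were tested, 1 rose and 0 fell, with a median of 0.14. NEDD4L, a ubiquitin ligase that acts on activated SMAD2 and SMAD3, rose (0.36, SE 0.10; adjusted p = 0.0486) but passed in 4 of 10 alternatives of scaling, filter, tool and block and not without either shCON library. SKI, the closest relative of SKIL, had 55.1 and 52.8 CPM in shMAGED2 and 43.6 and 44.4 CPM in shCON, with a log2 change of 0.29 that did not pass (adjusted p = 0.0951). PPM1A, a phosphatase of SMAD2 and SMAD3, had 56.5 and 66.1 CPM in shMAGED2 and 78.5 and 80.1 CPM in shCON (-0.37, adjusted p = 0.0664). PMEPA1, a feedback inhibitor that TGF-beta induces, had 0 counts in both shMAGED2 libraries and 13 and 8 in shCON, was not tested, and was named with these counts in view.

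In the list of genes known to respond to TGF-beta, some rose and others fell. Of 26 in the list, 23 were tested, 5 rose, 5 fell and 13 were not called, with a median of -0.06. Over all genes tested, 12.3% rose and 11.6% fell. COL1A1, a fibrillar collagen chain, fell to 27.9 ± 3.40 CPM in shMAGED2, against 81.2 ± 0.278 CPM in shCON (-1.54, SE 0.13; adjusted p = 0.00135). IL11, a cytokine that TGF-beta induces in fibroblasts, fell to 2.00 ± 0.287 CPM in shMAGED2, against 7.89 ± 1.96 CPM in shCON (-1.97, SE 0.29; adjusted p = 0.00754). Those that rose were ID1 (2.65, SE 0.14; adjusted p = 0.000739), ID2, ID3, KLF10 and MYC, of which ID2, ID3 and KLF10 were named with values in view. The ID genes encode inhibitors of basic helix-loop-helix factors and are known chiefly as BMP targets. MYC is known to be repressed by TGF-beta in epithelial cells. The list was kept as set beforehand, with 5 rises and 5 falls. Which of its genes TGF-beta induces or represses in U87-MG was not tested. MYC rose to 136 ± 37.4 CPM in shMAGED2, against 55.6 ± 0.698 CPM in shCON (1.29, SE 0.19; adjusted p = 0.0076). ID3 and KLF10 missed the threshold without either shCON library, and ID2 without shCON replicate 1. Without shCON replicate 1, 2 of the list rose and 2 fell, and without shCON replicate 2, 3 rose and 2 fell.

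A few further target genes, SMAD7, CDKN2B, COL4A1, SNAI2, ADAM19 and CDKN1A, were named after their values were seen. SMAD7, the inhibitory SMAD of the TGF-beta branch, had 7.64 and 9.58 CPM in shMAGED2 and 8.31 and 7.81 CPM in shCON (0.10, SE 0.21; adjusted p = 0.770). Its shMAGED2 libraries lay on either side of the shCON range. CDKN2B, a cell cycle inhibitor induced by TGF-beta in epithelial cells and lost by deletion in U87-MG, had 0 counts in all 4 libraries, as had COL4A1, which allows at most 0.0817 to 0.102 CPM per library (limits from 3 counts, counting error only). SNAI2, ADAM19 and CDKN1A fell, with log2 changes of -0.64, -0.69 and -0.48, and missed the threshold without either shCON library.

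Among 9 activin and nodal ligands and their binders, 5 were tested, 1 fell and 0 rose, with a median of -0.79. INHBE, a subunit of activin E, fell to 0.816 ± 0.00147 CPM in shMAGED2, against 2.67 ± 0.174 CPM in shCON (-1.71, SE 0.36; adjusted p = 0.0221), and missed the threshold without either shCON library. It had 24 and 30 counts in shMAGED2 and 89 and 82 in shCON. The small SD in shMAGED2 does not show the counting error of so few counts. INHBA, a subunit of activin A, had 8 and 9 counts in shMAGED2 and 38 and 27 in shCON and did not pass (-1.95, adjusted p = 0.0630). FSTL3, which binds activin, had 5.97 and 4.47 CPM in shMAGED2 and 8.56 and 9.47 CPM in shCON (-0.79, edgeR adjusted p = 0.0563). GDF11, the most abundant of the list, had 45.8 and 32.3 CPM in shMAGED2 and 27.5 and 29.55 CPM in shCON. Its log2 change of 0.45 did not pass (edgeR, adjusted p = 0.136). The summed level of the list overlapped, at 47.8 to 63.8 CPM in shMAGED2 and 52.2 to 56.6 CPM in shCON.

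**Figure D5:**
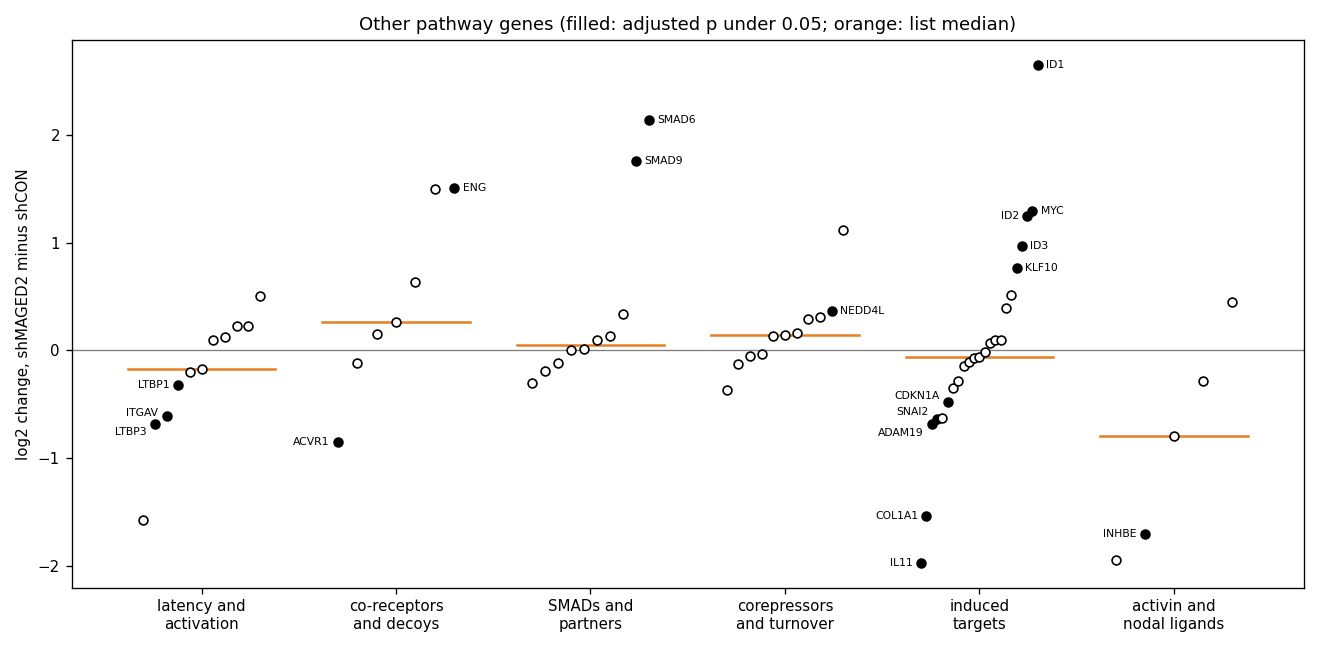
Log2 change, shMAGED2 minus shCON (vertical axis), of the tested genes of 6 pathway lists; filled points passed an adjusted p of 0.05 and are named, open points did not, and the orange line is the list median. The induced targets hold 5 filled points above 0, led by ID1 at 2.65, and 5 below, led by IL11 at -1.97.

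For the 3 genes of the 10 with the smallest p, the profiles most like theirs were sought by Euclidean distance between centred log2 CPM values over the 4 libraries, out of 11231 genes averaging 5 CPM or more. Nearest to SKIL were SMYD3, a lysine methyltransferase (distance 0.0313), and the zinc finger gene ZNF449 (0.0386). SMYD3 had 26.03 and 24.7 CPM in shMAGED2 and 58.7 and 59.7 CPM in shCON. Nearest to TGIF1 were WTAP, a subunit of the RNA adenosine methyltransferase complex (0.0375), and NRP2, a semaphorin co-receptor (0.0405). Nearest to TGFBI were the amino acid transporter SLC7A5 (0.0240) and MPC1, a subunit of the mitochondrial pyruvate carrier (0.0347). With 4 libraries in 2 groups, such likeness mostly describes a similar fall between the groups.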

How the data were processed

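RNA of 4 libraries, 2 shMAGED2 and 2 shCON, was analysed; groups and replicate numbers come from the sample titles. The deposited counts are whole numbers per gene, not normalised, and the submitters' processing notes name HISAT2, StringTie, SAMtools and the build hg38. The deposited FPKM values were computed by the authors and divide fragments by length and depth. Kit: NEBNext Ultra RNA, per the labels. The labels state neither annotation nor strand setting; coordinates are from GENCODE 29.

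Counts were filtered with filterByExpr, scaled by TMM and tested with edgeR 4.0.16 in R 4.3.3 (robust quasi-likelihood, group only, two-sided), with p-values adjusted over 15293 genes. SE derive from the F statistic. Shares and ratios used FPKM and exact permutation tests (SciPy 1.17.1). Alternatives were DESeq2 1.42.0, limma 3.58.1, other scalings and filters, a fit blocked on replicate number, and leaving out each library. The fit was also run on simulated counts with far fewer changed genes than were called here, and no result rests on it. Total counts of 28673774 to 36234336 put the limit of 3 counts at 0.0817 to 0.102 CPM.

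The genes, lists and tests were chosen with earlier results of these data known. Named were all 10 genes, both hairpin targets and, per list, up to 4 with the smallest p plus all called where at most 6 were; the text marks other genes as picked with values in view.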

Additional observations from a re-analysis of the deposited data

How the results depend on the processing

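Across the 10 alternatives of scaling, filter, tool, unit and block, the calls for the 10 genes kept their direction and side of the threshold, except that TGFB3 was not tested with a filter of 5 CPM in 2 libraries (0 of the genes rose there) and that TGFBR1, never called in these, went to -0.035 on log2(FPKM + 1) and -0.036 on log2(FPKM + 0.1); the cause was not tested. With the replicate block, 1 of the 10 rose and 4 fell, 9 other pathway genes rose and 10 fell, and 3336 genes were called in place of 3649, and no call among the 10 changed; by list, 2 latency genes fell in place of 3, 6 induced targets in place of 5, 2 co-receptors rose in place of 1, and NEDD4L was not called. Same-numbered libraries had a correlation of deviations of -0.018. This single value over all genes cannot show whether they shared a culture or batch. With 1 library left out, 1100 to 7447 genes were called, 0 to 3 of the 10 rose and 3 to 5 fell, 5 to 21 other pathway genes rose and 3 to 18 fell; TGFBR1 ran from -0.17 to 0.29. These fits take the spread from the group that still has 2 libraries. By CPM in place of FPKM, the ligand share of TGFB1 was 8.13 percentage points higher in shMAGED2 (4.16 by FPKM) and that of TGFB2 fell by 9.61 points (5.77 by FPKM), since CPM is not relative to length. Counts of 24 to 108 for TGFB3 limit its precision.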

Other observations

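The deposited FPKM and count values gave different sizes of change for TGIF1: its log2 change was -0.98 on log2(FPKM + 0.1) by limma and -0.79 from counts by edgeR, and it was called in both. RefSeq lists 7 start windows for TGIF1 and 8 for TGFBR1, and transcript use was not measured here. S100A6, a calcium-binding protein gene in the marker list of the line and named after its values were seen, had 6050 and 32709 counts in shMAGED2 and 30236 and 24329 in shCON, a gap within the shMAGED2 pair larger than that of any of the 10 genes.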
